A study of Mus musculus with 8 samples.

Results

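The aquaporin family, with 10 members, was followed in 8 clonal mouse liver tumour lines, 4 of intrahepatic cholangiocarcinoma (ICC, a liver cancer with features of bile ducts) and 4 of hepatocellular carcinoma (HCC, a liver cancer with features of hepatocytes). The members were Aqp1, Aqp2, Aqp3, Aqp4, Aqp5, Aqp6, Aqp7, Aqp8, Aqp9 and Aqp11, and all 10 of 10 were measured among 22180 genes. The family was chosen from the comparison of ICC with HCC lines itself, because Aqp5 had a lower level in ICC lines there, and because some aquaporins mark hepatocytes or bile ducts. The difference of Aqp5 between the tumour types is therefore given as a description. Nothing is read from its limma call, or from how that call changed with the setting. The ICC lines ICC9 and ICC10 are labelled female and ICC2.7 and ICC2.9 male; the HCC lines HCC2.1 and HCC2.4 are labelled female, and HCC1 and HCC4 male. All 8 lines come from C57BL/6 mice, all carry c-Myc and NrasG12V from the pCaMIN vector, and all were grown untreated in DMEM with fetal calf serum. ICC was induced by focal electroporation and HCC by hydrodynamic injection into the tail vein, and the starting cells of both were hepatocytes, so tumour type and route of delivery cannot be told apart.

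Aquaporins are membrane channels through which water crosses cells along an osmotic gradient. The aquaglyceroporins among them, Aqp3, Aqp7 and Aqp9, also pass glycerol. In liver, Aqp8 lies in the canalicular membrane and inside hepatocytes, Aqp9 takes up glycerol on the blood side of hepatocytes, and Aqp1 is the main water channel of bile duct cells, where it serves ductal bile secretion.

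Each line was measured once on an Affymetrix array, and the values are log2 levels of a probe set, a group of probes for one gene. The array medians lay between 5.02 and 5.09, and 8 arrays set the precision. How far a probe set stood above background was not examined, and the median of all gene means (5.66) serves only as a rough mark, since probe sets differ in brightness at equal RNA. The labels do not say whether lines of one type and sex share a tumour, so sex label and pair of lines cannot be told apart and every p-value covers only the spread among these lines. The values of the 8 lines span 7 directions, so that, up to rounding, any one line follows from the other 7. ICC9 carries the largest weight in the missing direction (0.782). The main fits count this direction although it holds almost no spread, so their p-values by type and sex tend to be too small. The albumin gene Alb, the defining hepatocyte marker, lay between 4.12 and 4.64 in the 8 lines, below that median, and 3 of 14 measured hepatocyte markers and 4 of 13 bile duct markers had a mean above it. The bile duct marker Sox9 lay between 11.45 and 11.86 and Krt7 between 5.84 and 6.04 in all 8 lines, whereas the bile duct keratin Krt19 ran from 5.60 in HCC4 to 9.26 in ICC10. Krt19 lay between 7.76 and 9.26 in the female-labelled and between 5.60 and 6.89 in the male-labelled lines, and its part in the sex differences of the aquaporins was not tested.

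Aqp5, the apical water channel of salivary and tear glands and of the lung alveolus, was lower in every ICC line than in every HCC line. It measured 6.90 in ICC9, 7.06 in ICC10, 6.00 in ICC2.7 and 6.17 in ICC2.9, against 8.11 in HCC1, 8.57 in HCC4, 8.74 in HCC2.1 and 8.57 in HCC2.4. The 4 HCC lines lay close together, whereas the ICC lines formed a higher female-labelled and a lower male-labelled pair. The means were 6.53 ± 0.53 in ICC and 8.50 ± 0.27 in HCC lines (SD, n = 4 each), a log2 difference of -1.97 (SE 0.25) or a 3.90-fold lower level in ICC. Leaving out each line in turn gave differences from -2.14 to -1.79. Aqp5 was the only member whose types did not overlap; of all genes, 4.44% lay lower in ICC without overlap and 4.19% higher.

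**Figure D1:**
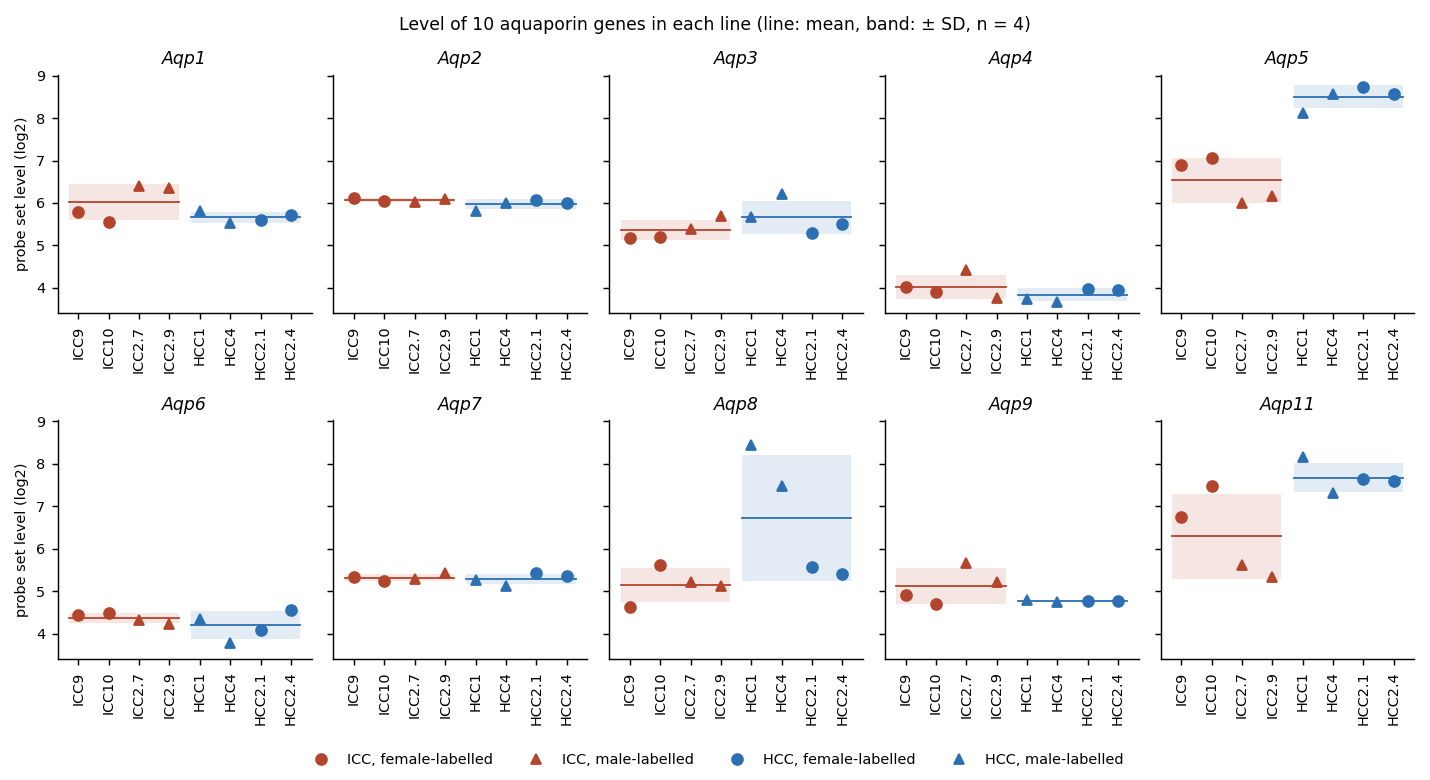
Log2 probe set level of each of the 10 aquaporin genes in the 8 lines, with circles for female-labelled and triangles for male-labelled lines, horizontal lines for the mean of each tumour type and bands for ± SD (n = 4). Aqp5 separates the types, Aqp8 is high in HCC1 and HCC4 alone, and Aqp11 is low in ICC2.7 and ICC2.9.

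The gene lies on chromosome 15 between 2 other aquaporins, Aqp2, which returns water in the kidney collecting duct under vasopressin, and Aqp6, a channel of intracellular vesicles in kidney. In GRCm38.p6, Aqp2 spans chr15:99579056-99584545, Aqp5 chr15:99591028-99594829 and Aqp6 chr15:99598468-99605478. The neighbours did not share the gap between the types. Aqp2 measured 6.12, 6.05, 6.02 and 6.10 in ICC9, ICC10, ICC2.7 and ICC2.9 and 5.82, 5.99, 6.08 and 6.01 in HCC1, HCC4, HCC2.1 and HCC2.4. Its difference was 0.10 (SE 0.08, adjusted p = 0.644 in limma over all genes), and its ICC and HCC lines overlapped. Aqp6 measured 4.44, 4.49, 4.33 and 4.23 in the ICC lines and 4.34, 3.79, 4.10 and 4.56 in the HCC lines in the same order. Aqp6 too overlapped between types, with a difference of 0.18 (SE 0.16, adjusted p = 0.668).

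Further out, 11 measured genes besides Aqp5 lie within 150 kb of it, a window chosen after the values were seen. Of the 11, 3 separated the types without overlap, 2 lower in ICC (4.44% of all genes) and 1 higher (4.19%). Gpd1, the cytosolic glycerol-3-phosphate dehydrogenase, starts 122.8 kb beyond Aqp5 and measured 6.43 ± 0.45 in ICC and 7.73 ± 0.19 in HCC lines (SD, n = 4 each). Its difference of -1.30 (SE 0.21) did not pass limma's threshold over all genes (adjusted p = 0.0551). Racgap1, a cytokinesis gene 25.7 kb beyond Aqp5, lay the other way, with means of 9.37 ± 0.21 for ICC and 8.51 ± 0.41 for HCC (SD, n = 4 each; adjusted p = 0.123 in limma). Cers5, a ceramide synthase gene at 140.8 kb, differed by -0.33. The remaining 8, among them Faim2 at -0.08 and Smarcd1 at 0.05, overlapped between types.

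**Figure D2:**
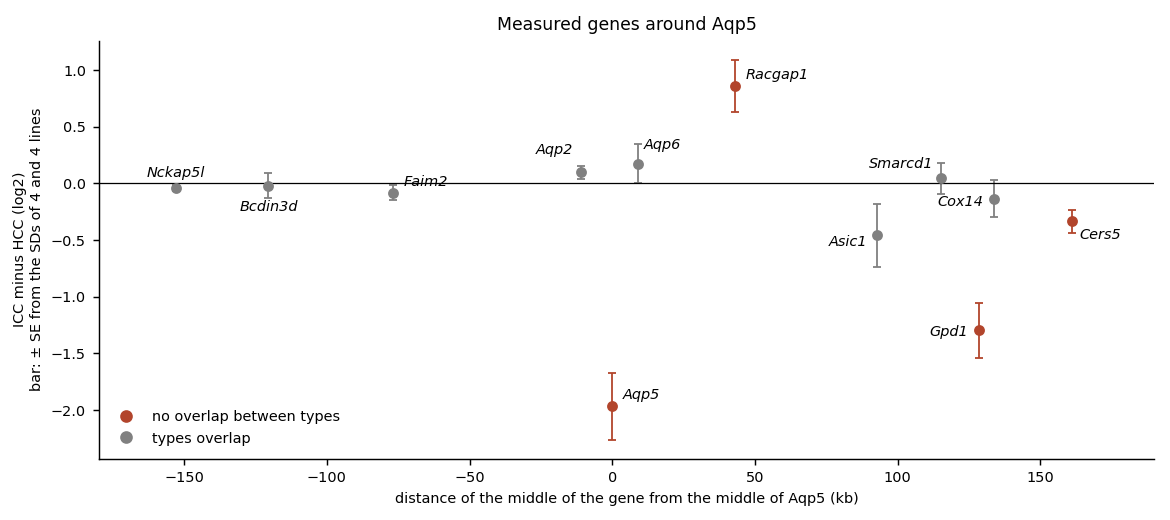
Difference between ICC and HCC lines (log2, bars ± SE from the SDs of 4 and 4 lines) for the 12 measured genes within 150 kb of Aqp5, against the distance of each gene's middle from that of Aqp5. Aqp5 (-1.97) and Gpd1 (-1.30) lie below the others, Aqp2 and Aqp6 stand near 0, and Racgap1 is higher in ICC (0.86).

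The sequences before the starts of 4 aquaporin genes are shown because 3 of them, Aqp5, Aqp8 and Aqp11, varied most over the lines while Aqp2, the neighbour of Aqp5, varied little. Each is the 250 bases before the RefSeq start in GRCm38.p6, read 5′ to 3′ on the strand of the gene, and capitals mark matches on either strand to 5 motifs: the E-box CACGTG that Myc and Max bind, the GC box GGGCGG, the CCAAT box, the TATA box with the letters TATAAA, and GGTGTGA, which T-box factors bind. No 2 matches overlap in these windows.
Aqp5 (chr15:99590778-99591027, plus strand): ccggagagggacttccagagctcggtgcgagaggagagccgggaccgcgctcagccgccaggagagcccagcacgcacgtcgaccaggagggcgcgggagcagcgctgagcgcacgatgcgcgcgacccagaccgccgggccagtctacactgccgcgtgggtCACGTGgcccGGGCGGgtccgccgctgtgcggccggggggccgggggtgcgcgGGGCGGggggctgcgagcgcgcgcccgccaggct
Aqp2 (chr15:99578806-99579055, plus strand): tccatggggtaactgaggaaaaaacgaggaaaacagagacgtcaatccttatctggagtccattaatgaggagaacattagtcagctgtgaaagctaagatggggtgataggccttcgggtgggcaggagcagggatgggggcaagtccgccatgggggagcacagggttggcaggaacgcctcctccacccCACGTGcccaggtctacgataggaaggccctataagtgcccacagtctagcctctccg
Aqp8 (chr7:123462044-123462293, plus strand): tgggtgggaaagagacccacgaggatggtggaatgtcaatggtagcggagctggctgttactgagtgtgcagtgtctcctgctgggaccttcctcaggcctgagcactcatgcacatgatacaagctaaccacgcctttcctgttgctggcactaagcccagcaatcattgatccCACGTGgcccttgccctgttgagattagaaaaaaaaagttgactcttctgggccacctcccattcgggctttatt
Aqp11 (chr7:97738248-97738497, minus strand): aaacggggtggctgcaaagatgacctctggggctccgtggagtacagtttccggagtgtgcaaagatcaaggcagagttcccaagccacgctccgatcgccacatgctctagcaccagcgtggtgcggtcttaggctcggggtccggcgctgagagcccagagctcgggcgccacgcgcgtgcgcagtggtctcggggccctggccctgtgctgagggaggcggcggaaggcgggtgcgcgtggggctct

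RefSeq windows were found for 9 of the 10 members, 11 windows in all. Some were set at a start inside the gene. The windows of Aqp6 (chr15:99600950-99601199) and Aqp9 lie within the spans of those genes, and those of Aqp7 lie in or reach into its span. CACGTG was in 4 of the 11, and in 6.02% of 32851 windows of the same length over all genes. The 4 belong to Aqp5, where it begins 87 bases before the start, Aqp2 (58 bases), Aqp8 (75 bases) and Aqp6 (29 bases before a start inside the gene). GGGCGG was in 3 of the 11 windows (32.7% of all), and began at 2 places before Aqp5, 77 and 34 bases from the start. The Aqp5 window held 78.4% G and C, against a median of 52.4% over all windows and 67.2% for Aqp11, 55.6% for Aqp2 and 52.4% for Aqp8. GGTGTGA, in 3.33% of all windows, was found for Aqp7 only, in both of its overlapping windows. TATAAA was before Aqp3 only (12.4% of all windows) and CCAAT before none (33.8%).

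Among the liver aquaporins, Aqp8 was high in 1 pair of HCC lines. It measured 8.45 in HCC1 and 7.48 in HCC4, but 5.57 in HCC2.1 and 5.40 in HCC2.4. In the ICC lines it measured 4.63 in ICC9, 5.61 in ICC10, 5.23 in ICC2.7 and 5.12 in ICC2.9. Both male-labelled HCC lines thus stood above the other 6 lines, while the female-labelled HCC lines lay within the range of the ICC lines. The means were 5.15 ± 0.40 in ICC and 6.73 ± 1.49 in HCC lines (SD, n = 4 each), a difference of -1.58 (SE 0.64) that limma did not call over all genes (adjusted p = 0.315). In the male-labelled lines alone the difference was -2.79 (SE 0.33, adjusted p = 0.0387, 2 lines per type), and in the female-labelled lines -0.37 (SE 0.32, adjusted p = 0.518). The test of the difference between those values gave 2.43 (SE 0.53) and was not passed (limma, adjusted p = 0.115). The spread of each single-sex fit comes from pairs of lines that may share a source, and these fits called 0.902% of all genes in male-labelled and 3.14% in female-labelled lines.

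The hepatocyte markers did not share one pattern among the HCC lines. The lipoprotein gene Apob stood at 3.96 in HCC1 and 3.97 in HCC4 but at 8.80 in HCC2.1 and 8.79 in HCC2.4, and the hepatocyte factor Hnf4a at 5.32 and 5.70 but at 7.26 and 7.06. Both were therefore high in the HCC lines where Aqp8 was low. Ass1, an enzyme of the urea cycle, stood the other way, at 6.73 and 6.92 in HCC1 and HCC4 and at 5.93 and 6.29 in HCC2.1 and HCC2.4. The mean of the 14 hepatocyte markers was 5.15 in HCC2.1, 5.21 in HCC2.4, 4.83 in HCC1 and 4.80 in HCC4. Apob and Hnf4a had the widest gaps between these pairs among the 14, so the mean does not describe the other markers. Alb, for example, stood at 4.33 in HCC1, 4.23 in HCC4, 4.12 in HCC2.1 and 4.45 in HCC2.4.

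Aqp9, the glycerol channel of hepatocytes, was almost level in the HCC lines and varied among ICC lines. It measured 4.79, 4.75, 4.78 and 4.78 in HCC1, HCC4, HCC2.1 and HCC2.4, and 4.92, 4.69, 5.67 and 5.22 in ICC9, ICC10, ICC2.7 and ICC2.9. The male-labelled ICC lines lay above all other lines. The difference between types was 0.35 (SE 0.19, adjusted p = 0.441 in limma), with ICC10 below all HCC lines.

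Aqp11 is a distant family member of the endoplasmic reticulum, whose loss damages the kidney proximal tubule. It measured 6.74 in ICC9, 7.47 in ICC10, 5.63 in ICC2.7 and 5.33 in ICC2.9, against 8.15 in HCC1, 7.31 in HCC4, 7.64 in HCC2.1 and 7.60 in HCC2.4. The male-labelled ICC lines were the lowest, and ICC10 reached above HCC4, so the types overlapped. The means were 6.29 ± 0.99 in ICC and 7.68 ± 0.35 in HCC lines, a difference of -1.38 (SE 0.44, adjusted p = 0.219 in limma). In male-labelled lines the difference was -2.25 (SE 0.30, adjusted p = 0.0531) and in female-labelled lines -0.52 (SE 0.24, adjusted p = 0.259). The difference between the 2 was 1.74 (SE 0.45) and did not pass limma's test of the interaction of type and sex (adjusted p = 0.122).

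Aqp1, the channel of bile duct cells and of endothelium, measured 5.79 in ICC9, 5.56 in ICC10, 6.40 in ICC2.7 and 6.35 in ICC2.9. In HCC1, HCC4, HCC2.1 and HCC2.4 it measured 5.82, 5.52, 5.60 and 5.72. The male-labelled ICC lines were again apart from the other 6, here on the high side. The difference between types was 0.36 (SE 0.19, adjusted p = 0.440 in limma); it was 0.71 in male-labelled and 0.02 in female-labelled lines, and the interaction of type and sex was -0.69 (SE 0.20, adjusted p = 0.135). The mean of the 10 measured markers of stellate cells and fibroblasts was also highest in ICC2.7 and ICC2.9. It was 6.50 and 6.28 there and from 5.49 to 5.82 in the other 6 lines. Col1a1, a type I collagen chain, stood at 9.82 and 8.19 against 6.41 to 7.18. Not every marker shared this. Col1a2 was highest in HCC4 (6.78, against 6.69 in ICC2.7 and 6.77 in ICC2.9). Des was highest in HCC1 (6.86, against 5.17 and 4.97). The part of these markers in the levels of Aqp1, Aqp5, Aqp9 and Aqp11 was not tested. Of these 10 markers limma called 1 higher in ICC, Col3a1 (1.67, SE 0.22, adjusted p = 0.0252), against 0.261% of all genes called in either direction. That call was lost without ICC9, ICC2.7, ICC2.9, HCC2.1 or HCC2.4 (adjusted p from 0.0715 to 0.101), with lines of one sex and type as a random block (adjusted p = 0.0818 with an estimated correlation), with a term for the missing direction (0.0742) and with those lines averaged (0.914). The mean of 8 endothelial markers lay between 4.58 and 4.81 in all lines, and that of 7 lymphocyte markers between 4.54 and 4.80. The mean of 9 macrophage markers was lowest in the male-labelled ICC pair, at 5.23 in ICC2.7 and 5.11 in ICC2.9. It lay between 5.58 and 5.81 in the other 6 lines. Cd68 (7.31 in ICC2.7 and 7.98 in ICC2.9) and Cd14 (7.88 and 7.28) were lowest in this pair. The other markers did not all share this, and Clec4f was highest in ICC2.7 (5.27) and lowest in ICC2.9 (4.76). The part of the macrophage markers in the levels of the same aquaporins was not tested. Limma called no gene of these 3 lists, nor of the hepatocyte and bile duct lists, between the types.

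Differences were smaller in the remaining members. Aqp3, an aquaglyceroporin of skin and kidney, measured 5.18, 5.20, 5.39 and 5.69 in ICC9, ICC10, ICC2.7 and ICC2.9 and 5.66, 6.20, 5.29 and 5.51 in HCC1, HCC4, HCC2.1 and HCC2.4. HCC4 was the highest line, and the types overlapped (difference -0.30, SE 0.20, adjusted p = 0.541 in limma). Aqp7, the channel through which fat cells release glycerol, lay between 5.13 and 5.42 in all 8 lines, with a difference of 0.03 (SE 0.09, adjusted p = 0.924). Aqp4, the water channel of astrocyte end feet, lay between 3.67 and 4.42, highest in ICC2.7, with a difference of 0.19 (SE 0.15, adjusted p = 0.607). The differences of Aqp7 and Aqp4 changed sign in female-labelled lines (-0.100 and -0.005), so neither has a settled direction.

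The remaining members lie on chromosomes 4, 6, 7, 9 and 18. Aqp8 (chr7:123462294-123468003) lies between Lcmt1, which differed by -0.06, and Zkscan2 at -0.28 (SE 0.15, adjusted p = 0.431 in limma). Aqp11 (chr7:97726379-97738247) lies between Clns1a, 5586 bases away and different by 0.11, and Gdpd4 at 0.01. Aqp9 (chr9:71110659-71167849) lies beside the retinal dehydrogenase gene Aldh1a2, which differed by 0.49 (SE 0.21, adjusted p = 0.348), and Adam10 at 0.04. Aqp1 (chr6:55336299-55348555) lies between Mindy4 at -0.04 and Ghrhr at 0.04. Aqp7 (chr4:41033074-41048237) and Aqp3 (chr4:41092724-41098183) are 44487 bases apart, with Mir3094 at 0.13 and Nol6 at 0.18 on their outer sides. Aqp4 (chr18:15389394-15410982) lies between 4933424G05Rik at -0.24 and Chst9 at -0.03. The types overlapped in all of these neighbours.

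In the comparison of the types over all 8 lines limma called 1 of the 10 members, Aqp5, and 0.261% of all genes; since Aqp5 was chosen from this contrast, nothing is read from that count. The count was 0 without ICC9, ICC2.7, ICC2.9, HCC2.1 or HCC2.4. Of the 10 members 6 had a positive and 4 a negative difference, with a median of 0.06 log2 units, against 0.00 for all genes. Besides Aqp5, the members that differed by more than 1 log2 unit were Aqp8 and Aqp11. Both had a lower mean in ICC, overlapped between the types and were not called (limma, adjusted p = 0.315 and 0.219). The share of all genes beyond 1 log2 unit was not counted.

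**Figure D3:**
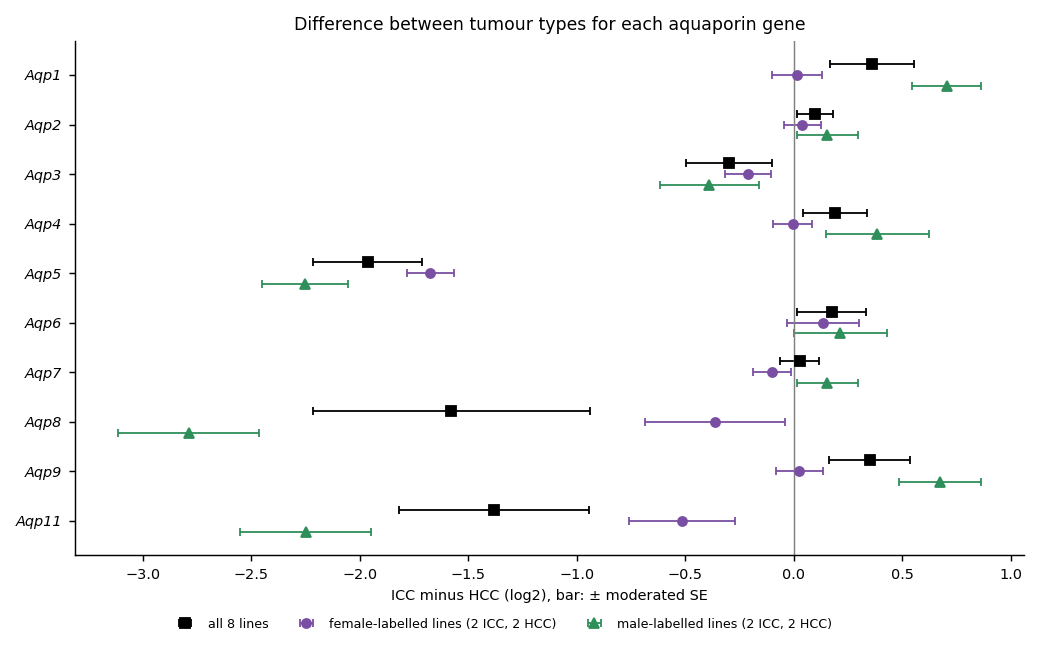
Difference between ICC and HCC lines (log2, bars ± moderated SE of limma) for each of the 10 aquaporin genes, in all 8 lines (squares), in female-labelled (circles) and in male-labelled lines (triangles). Aqp8 and Aqp11 differ by -2.79 and -2.25 in male-labelled lines and by -0.37 and -0.52 in female-labelled lines, while Aqp5 is lower in ICC in both.

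The sex labels give a comparison that did not choose the members. With tumour type in the model limma called 2.94% of all genes between female- and male-labelled lines and 0 of the 10 aquaporins, of which 3 had an unadjusted p under 0.05 (17.5% of all genes). Aqp5 was higher by 0.61 (SE 0.16) in female-labelled lines, with an adjusted p of 0.0894. Its sex difference came mostly from the ICC lines, at 6.90 and 7.06 in the female-labelled and 6.00 and 6.17 in the male-labelled pair, whereas HCC lines of both labels reached 8.57. Without HCC4 the difference was 0.76 and was called (adjusted p = 0.0187 in limma). Leaving out any other line gave a larger adjusted p than with all lines, from 0.111 without HCC2.4 to 0.298 without ICC9. So did a random block of type and sex (0.156) and a term for the missing direction (0.181). Aqp3 was lower in female-labelled lines by 0.44 on the log2 scale (female minus male -0.44, SE 0.14, adjusted p = 0.149) and Aqp8 by 1.27 (-1.27, SE 0.50, adjusted p = 0.240). The interaction of type and sex was called in 0% of all genes and in 0 of the 10 members (limma); 5 members had an unadjusted p under 0.05, against 20.1% of all genes. The 5 were Aqp1, Aqp5, Aqp8, Aqp9 and Aqp11.

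Over the 8 lines 3 members had an SD of at least 0.5, Aqp8 (1.32), Aqp5 (1.12) and Aqp11 (1.01), and for each the 3 most similar profiles were sought among 1416 genes with such a spread. Pearson's r is given as a description over 8 lines that share tumour types and pairs. The profiles most like Aqp5 were those of Parm1 (r = 0.988), which encodes an androgen-regulated mucin-like protein, Prr5l (0.988), a partner of mTOR complex 2, and Gpd1 (0.986), the dehydrogenase described above. Prr5l, for example, measured 6.11, 6.23, 5.74 and 5.60 in the ICC lines and 7.34, 7.40, 7.55 and 7.53 in the HCC lines. The profiles most like Aqp8 were those of Ceacam1 (0.990), an adhesion molecule of hepatocyte canaliculi, Pax3 (0.990), a neural crest and muscle transcription factor, and Slc7a8 (0.989), a neutral amino acid transporter. Ceacam1 measured 10.79 in HCC1 and 8.90 in HCC4 and from 5.29 to 6.89 in the other 6 lines, so its highest pair was that of Aqp8. Nearest to Aqp11 were Podxl (0.993), an anti-adhesive surface sialomucin, Tfr2 (0.988), a transferrin receptor of hepatocytes, and Rdh10 (0.987), a retinol dehydrogenase. Podxl measured 6.48 in ICC2.7 and 6.13 in ICC2.9 and from 7.59 to 8.54 elsewhere. With Spearman's rho in place of r, 1 of the 3 genes nearest to Aqp5 was among the first 3. The same held for 2 of the 3 genes nearest to Aqp8 and 1 of the 3 nearest to Aqp11.

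**Figure D4:**
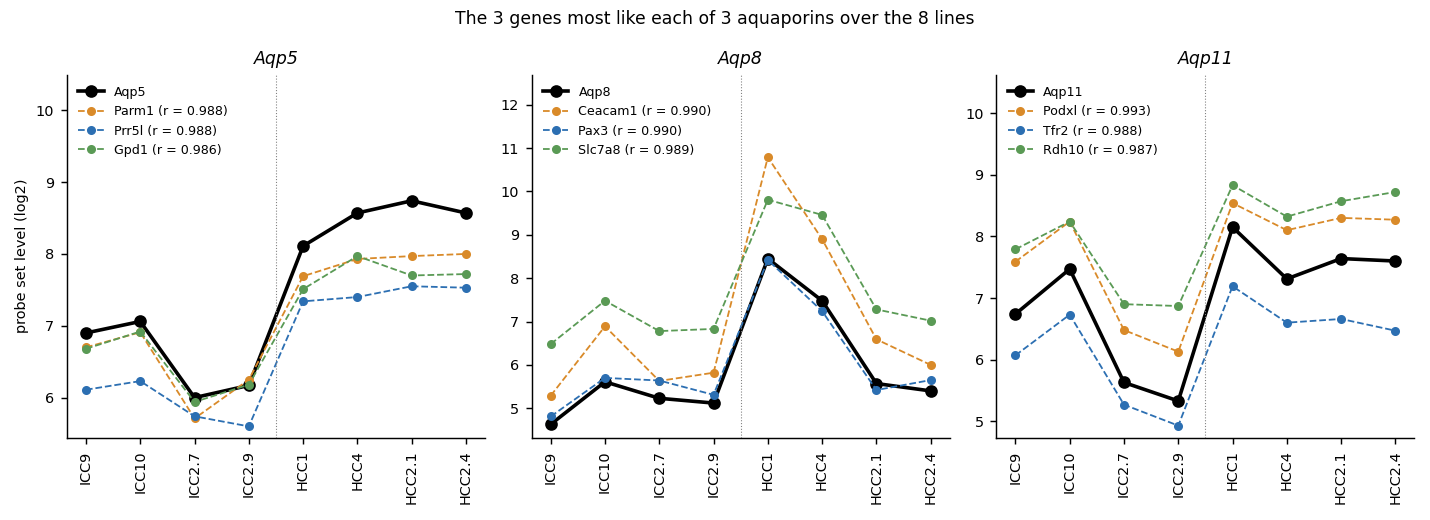
Log2 probe set level in each of the 8 lines for Aqp5, Aqp8 and Aqp11 (black) and for the 3 genes with the highest Pearson r to each (colours), with a dotted line between ICC and HCC lines. The genes beside Aqp8 peak in HCC1 and HCC4, and those beside Aqp11 are lowest in ICC2.7 and ICC2.9.

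Genes that work with aquaporins were counted in 4 lists. Of 20 measured genes of osmotic and cell volume regulation limma called 1, lower in ICC (0.261% of all genes were called in either direction). An unadjusted p under 0.05 was found for 8 (14.1% of all genes), and the median difference was -0.21. The gene called was Trpv4, a calcium channel that opens when cells swell. It measured 5.45, 5.46, 4.97 and 5.31 in ICC9, ICC10, ICC2.7 and ICC2.9 and 6.27, 6.14, 6.63 and 6.29 in HCC1, HCC4, HCC2.1 and HCC2.4. Every HCC line lay above every ICC line, as for Aqp5 and for 4.44% of all genes. The difference was -1.04 (SE 0.14, adjusted p = 0.0310 in limma). The call was lost without ICC9, ICC2.7, ICC2.9, HCC2.1 or HCC2.4 (adjusted p from 0.0728 to 0.105), with lines of one sex and type as a random block (adjusted p = 0.161 with an estimated correlation), with a term for the missing direction (0.0952), with those lines averaged (0.914) and in male-labelled lines alone (0.0751). Lrrc8c, a subunit of the volume-regulated anion channel, differed by -0.86 (SE 0.17, adjusted p = 0.0854).

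The other 3 lists held no called gene in limma's comparison of types. Of 20 genes of ductal bile secretion, the process Aqp1 serves, 5 had an unadjusted p under 0.05, and the median difference was -0.14. The matching share over every measured gene was 14.1%, which is the background for the counts of all 3 lists. Whether any list exceeded this share was not tested. Prkaca, the catalytic subunit of protein kinase A, differed by 0.30 (SE 0.07, adjusted p = 0.140) and Adcy9, an adenylyl cyclase, by -0.82 (SE 0.28, adjusted p = 0.237). The chloride channel Cftr lay between 2.88 and 3.75 and the secretin receptor Sctr between 4.91 and 5.23 in all lines. Of 16 genes of glycerol and urea handling, 4 had an unadjusted p under 0.05, with a median of 0.02; after Gpd1 the smallest p was that of Gpd2, the mitochondrial partner of Gpd1, which differed by 0.27 (SE 0.08, adjusted p = 0.195). Gpd1 and Gpd2 thus differed in opposite directions. Of 19 genes of aquaporin trafficking and regulation, 4 had an unadjusted p under 0.05, with a median of -0.02; the kinase gene Prkcd differed by -0.56 (SE 0.15, adjusted p = 0.163) and the anchoring protein gene Akap11 by 0.34 (SE 0.12, adjusted p = 0.243).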

How the data were processed

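RNA of 8 lines was hybridised to Affymetrix arrays, 1 per line. The deposited log2 values were made by the authors with RMA in the oligo package, per the submitters' processing notes; the sources used here give no versions. RMA normalizes arrays to one distribution, so a shift shared by all genes cannot be seen. Of 39993 probe sets, 23521 name 1 gene, 1814 several and 14658 none here. For each of 22180 genes the probe set of highest mean was kept; every aquaporin had 1 such probe set.

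Differences were fitted over all genes with limma 3.58.1 in R 4.3.3 (lmFit, eBayes, two-sided, Benjamini-Hochberg over all genes, adjusted p under 0.05), for type without covariates (6 residual and 2.85 prior degrees of freedom), for sex with type, and for their interaction with both. The residual degrees of freedom for type and sex include the missing direction, which holds almost no spread, and are therefore too many. With a term for it 12 genes instead of 58 were called by type. The missing direction is also not independent of the interaction, and the term moved that of Aqp8 from 2.43 to 2.75. SE is limma's moderated standard error, and ± is the SD over lines. The code of the fits was run on simulated data with independent lines. The real values lack a direction, and lines of one type and sex had an estimated correlation of 0.398 in the fit for type. That run therefore cannot show that the p-values hold here. Members, lists and alternatives were chosen with earlier results of these data known. Named genes were the members, the 3 profiles most like Aqp5 and each member with an SD of at least 0.5, the nearest measured genome neighbours, and per list up to 4 called genes or the 2 with the smallest p; predicted genes, RIKEN clones and pseudogenes were left out of the profiles. Cers5, Smarcd1, Apob, Ass1, Krt19, Col1a1, Col1a2, Des, Cd68, Cd14, Clec4f, Alb, Sox9, Krt7, Cftr and Sctr were named after their values were seen. Promoter sequences, names and coordinates are from RefSeq (GRCm38.p6). Figures were drawn with matplotlib 3.10.9 in Python 3.11.15.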

Additional observations from a re-analysis of the deposited data

How the results depend on the processing

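In the comparison of types, the count of called genes, 58, was 103 among genes above the median level, 2278 with array weights, 6 with a random block for each pair of one type and sex, 12 with the missing direction in the model, 428 with sex, 119 with sex and the missing direction, 0 with lines of one type and sex averaged (limma), 696 in female-labelled and 200 in male-labelled lines, and 2 to 109 without one line. With array weights ICC9 alone was weighted 71.6, the others below 1. The count of aquaporins, 1, was 0 with the block, the missing direction or averaging, 2 in male-labelled lines and 0 to 1 without one line. The count by sex, 653, was 2036 with array weights, 334 with the block, 280 with the missing direction and 146 to 917 without one line; 0 aquaporins became 1 (Aqp5) with array weights and 0 to 1 without one line. For the interaction it stayed 0 in 14 of 14. Signs changed only in uncalled members: by type Aqp4 (-0.005) and Aqp7 (-0.100) in female-labelled lines, and without one line Aqp7 (-0.027 to 0.07), by sex Aqp4 (-0.026 to 0.234), and in the interaction Aqp3 (-0.09 to 0.45) and Aqp6 (-0.355 to 0.195). The causes were not tested. Signal over background was not examined, so no limit from it is given.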

Other observations

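Of the other family genes, Mip, the water channel of the eye lens, lay between 5.87 and 6.10 in the 8 lines, and Aqp12, a channel of pancreatic acinar cells, between 4.96 and 5.65. Limma called neither between the types (adjusted p = 0.852 and 0.875). In 20 groups of 4 lines, 10 members in each type, the gap of the highest or lowest line to its neighbour never exceeded Dixon's critical value for 4 samples.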
